A study of Drosophila melanogaster with 5 samples.

Results

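The regions described here are stretches of open chromatin that were called in the midline cells of the Drosophila melanogaster nervous system and that lie far from any stretch called in the whole embryo. A midline peak was taken as far if the bases between its nearest edge and that of every embryo peak on its chromosome arm numbered 5000 or more. Of the 10000 midline peaks, 1248 met this rule (12.5%, exact Clopper-Pearson 95% interval 11.8 to 13.1%). They made up 31.9% (30.5 to 33.4%) of the 3911 midline peaks that overlapped no embryo peak, which were themselves 39.1% of the midline list. The remaining 2663 midline-only peaks lay under 5000 bp from an embryo peak and serve below as the comparison, beside the 6089 midline peaks that overlapped one. These regions were chosen by the positions of peaks in both lists, so their distance to embryo peaks and their absence from the embryo list are descriptions, not findings.

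Open chromatin was measured by FAIRE-seq, in which crosslinked and sheared chromatin is extracted with phenol and the DNA that is free of nucleosomes stays in the water phase and is sequenced. The midline group comprised 2 libraries of cells sorted by GFP from embryos of the strain sim3.7-Gal4 UAS-mCD8::GFP, in which a fragment of the sim gene drives a membrane reporter. The whole-embryo group comprised 2 libraries of OregonR embryos, and both groups were aged 6 to 8 hours. A single library of genomic DNA from adult virgin females of the strain y;cn,bw,sp was the input, and no values of it were used here. Per the labels, the midline cells were dissociated, sorted and then fixed for 5 minutes, whereas the embryos were fixed whole for 10 minutes, and both chromatins were sheared to between 500 and 2000 bp. Strain, transgenes, sorting, fixation and cell type therefore differ together between the lists and cannot be told apart. The authors pooled the replicates of each group before they called peaks and deposited the 10000 highest peaks of each. There is thus 1 list a group, no spread between replicates and no test between groups, and the depth of the libraries is unknown. The lists hold no expression values, so the sort could not be checked against marker genes. All intervals below cover counting error only, and neighbouring peaks are not independent of each other.

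Open regions of this kind include promoters, enhancers and insulators, where bound proteins keep nucleosomes away. The midline cells are a narrow row of neurons, glia and their precursors at the centre of the nerve cord, whose identity depends on the transcription factor Single-minded, the product of sim. They guide the growth of axons across the midline and signal to the cells beside them. In a whole embryo they are mixed with a large excess of epidermis, muscle, gut and other nervous tissue. The coordinates are those of the dm3 genome build, no annotation of that build was used here, and no gene is assigned to a peak.

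Peaks far from embryo peaks were mostly weak for the midline list. Their median score was 62 (interquartile range 50 to 87), against 64 (53 to 94) for the other midline-only peaks, 136 (82 to 226) for the shared peaks and 95 (61 to 173) for all midline peaks. The score is the authors' own value for a peak, a whole number without a stated scale, and was compared within the midline list alone. Ranked from the highest score, the far peaks had a median rank of 7398.5 of 10000 (95% interval of the median 7117 to 7550.5), and the other midline-only peaks of 7117 (6922 to 7117). The upper end of the second interval meets the lower end of the first at 7117, the rank shared by peaks tied at score 64. The medians alone thus do not settle whether the ranks differed. Of the far peaks, 19.95% (17.8 to 22.3%) were among the 5000 highest-scoring midline peaks, against 24.2% (22.6 to 25.9%) of other midline-only peaks. Among the 1000 lowest-scoring were 22.7% (20.4 to 25.1%) and 17.6% (16.2 to 19.1%). Neither pair of intervals overlapped, and each time the far peaks stood lower in the list.

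The top of the midline list held few of these regions. Among the 1000 highest-scoring midline peaks, 7 were far from embryo peaks (0.70%, 0.28 to 1.44%), and 27 were other midline-only peaks (2.70%, 1.79 to 3.90%). Among the 1000 lowest-scoring, 283 were far (28.3%, 25.5 to 31.2%) and 469 were other midline-only peaks (46.9%, 43.8 to 50.1%). Both classes became more frequent down the list, and at every step the far peaks were the fewer. As a share of midline-only peaks alone, the far peaks were 22.7% (16.9 to 29.4%) of 185 in ranks 1 to 2500 and 34.8% (32.5 to 37.1%) of 1734 in ranks 7501 to 10000. These intervals do not overlap. The shares between were 29.2% for ranks 2501 to 5000 and 30.8% for ranks 5001 to 7500, and their intervals overlapped.

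**Figure D1:**
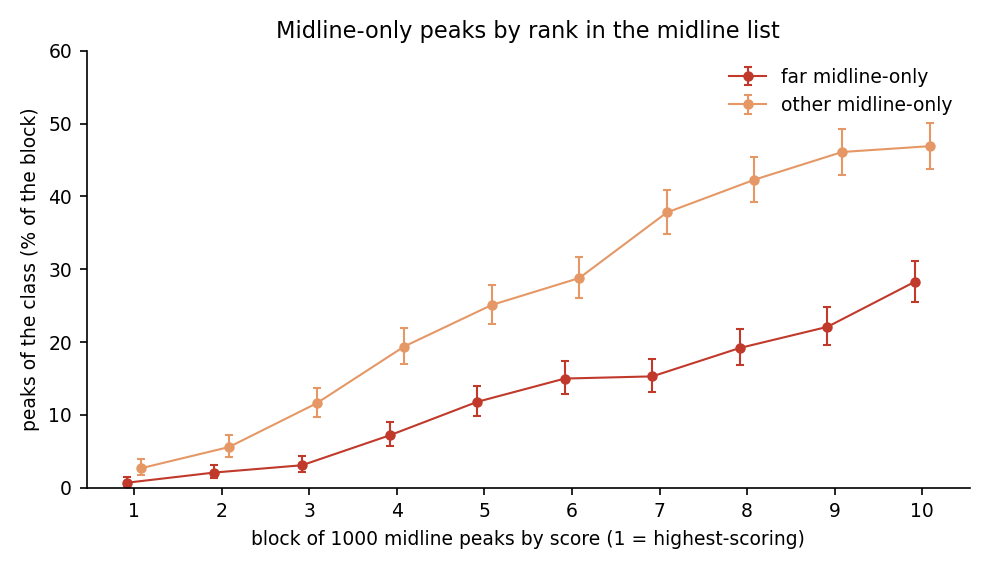
Share of midline peaks that were far from embryo peaks, and of other midline-only peaks, in each block of 1000 peaks ordered by the authors' score. Points are shares in percent and bars are exact 95% intervals. The far share climbs from 0.70% in the highest block to 28.3% in the lowest.

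The 7 far peaks among the 1000 highest were spread over 3 arms. The highest spanned bases 2690163 to 2690879 of the X. It scored 1009 and ranked 1 in the list, and its nearest embryo peaks were 57.1 kb away on the left and 23.8 kb on the right. The second, on 2L at 19913785 to 19914393, had a score of 415 and rank 366, with embryo peaks at 17.5 and 20.3 kb. A wide step in score thus separated the first from all others, and the far class had 1 member among the 100 highest midline peaks. Whether the X peak lies in sequence that the transgenes of the sorted strain carry, and so in extra copies, was not tested.

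The next of the 10 highest were all weaker than 400. On 3R, the peak at 10328633 to 10329054 scored 383 and that at 19499545 to 19500034 scored 343, and the second had an embryo peak 5.53 kb to its right but none for 104 kb to its left. On 2L, 21001978 to 21002549 scored 333 and 18370796 to 18371139 scored 329. They differed in their surroundings, since the gap between the flanking embryo peaks was 12.6 kb around the first and 81.6 kb around the second. On 3R, 27866035 to 27866380 scored 301 at 24.6 kb from the nearest embryo peak. The eighth spanned 15956133 to 15956668 of 2R and scored 269. The ninth spanned 7264836 to 7265295 of 2L and scored 267, and the tenth spanned 8190041 to 8190186 of the X and scored 257. That X peak was 146 bp wide, whereas the other 9 measured between 344 and 717 bp.

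Distance from the embryo list varied widely among the far peaks but showed little relation to their strength. The median distance was 9.43 kb (interquartile range 6817 to 15159.8 bp) and the largest 102343 bp. Of the 1248 peaks, 410 (32.9%) lay at 5000 to 7500 bp, 256 at 7500 to 10000 bp, 387 at 10000 to 20000 bp, 156 at 20000 to 40000 bp and 39 beyond 40000 bp. Median scores over these bins were 64, 61, 60, 62 and 64, and median widths 215.5, 210.5, 215, 202 and 220 bp. Across the 1248 peaks, distance had a Spearman correlation of -0.02 with score and of -0.05 with width, given as a description of peaks from a single list.

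The regions farthest from the embryo list lay at low dm3 coordinates of arms 3R and 3L. The farthest, on 3R at 2041062 to 2041226, was 102 kb from the nearest embryo peak and had a score of 50. A second peak in the same gap of 238 kb, at 2024466 to 2024603, was 85.7 kb away with a score of 51. Both were weak and narrow, at 165 and 138 bp. The other 3 of the 5 farthest stood at the start of 3L, at 26611 to 27041 (95.2 kb, score 148), 29733 to 29943 (92.3 kb, score 64) and 33473 to 33774 (88.4 kb, score 183). They belong to the largest cluster described below.

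Peaks on either side of the limit overlapped in score. The 5 far peaks nearest to it lay 5000, 5002, 5005, 5005 and 5012 bp from an embryo peak, with scores of 46, 55, 63, 74 and 59. The 5 peaks just under it lay at 4997, 4992, 4986, 4985 and 4977 bp, with scores of 55, 336, 73, 45 and 46. The peak with a score of 336, on 3L at 14414908 to 14415369 and rank 667, thus missed the far class by 8 bp.

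Far peaks were narrow, and below rank 2500 their median widths lay close to those of other midline-only peaks of like rank. Their median width was 214 bp (interquartile range 165 to 288 bp; 95% interval of the median 206 to 219), against 224 bp (173 to 307; 220 to 230) for the other midline-only peaks and 312 bp (234 to 433) for shared peaks. Widths under 150 bp were found for 16.3% (14.3 to 18.4%) of far, 12.7% (11.5 to 14.1%) of other midline-only and 3.81% (3.34 to 4.32%) of shared peaks. At 600 bp or more stood 12 far peaks (0.96%), 50 other midline-only peaks (1.88%) and 596 shared peaks (9.79%). No peak of the list was narrower than 125 bp, so the lower edge of all 3 classes is the same.

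The gap of 10 bp between the medians was smaller in the 3 lower bins of rank and larger, at 37 bp, in the top bin. In ranks 2501 to 5000 the median widths were 298 bp for 207 far and 294 bp for 501 other midline-only peaks, so the order was turned round. In ranks 5001 to 7500 they were 223 and 224.5 bp, and in ranks 7501 to 10000 they were 179 and 183 bp. Intervals of the medians overlapped in each of these bins. Among ranks 1 to 2500, the 42 far peaks had a median of 364 bp (342 to 422) and the 143 others of 401 bp (364 to 427), again with overlapping intervals. Width followed score to a like degree in each class, with Spearman correlations across peaks of 0.53 for far, 0.54 for other midline-only and 0.59 for shared peaks.

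**Figure D2:**
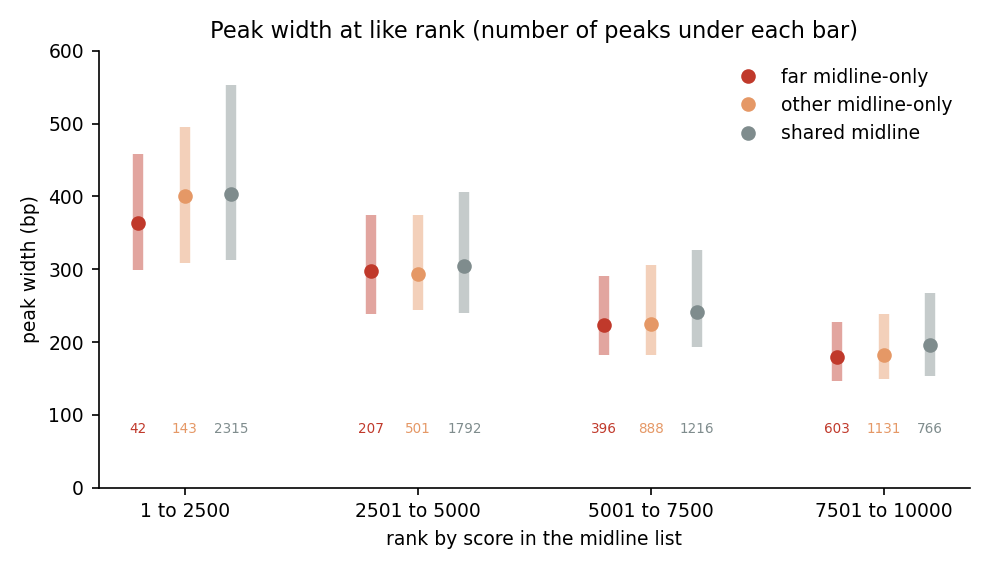
Peak width in bp for far midline-only, other midline-only and shared midline peaks in 4 bins of rank by score. Dots are medians, bars run over the interquartile range, and the numbers give the peaks in each. Far and other midline-only medians differ by at most 4 bp in the 3 lower bins, and by 37 bp in the top bin, where there are 42 far peaks.

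Some far peaks were wide without a matching score. The widest, on 2L at 1473184 to 1474197, spanned 1014 bp with a score of 188. The second, on 2L at 19377444 to 19378359, spanned 916 bp with a score of 102, close to the median of the whole list. The third, on 2R at 15817704 to 15818535, spanned 832 bp with a score of 89. The narrowest named peaks, 3 of 125 bp on 2L starting at 2818794, 5480283 and 7022283, had scores of 46, 51 and 46.

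All 5 arms carried far peaks, and 2L held a larger share of them than of the comparison peaks. On 2L lay 280 far peaks (22.4%, 20.2 to 24.9%), against 18.7% (17.3 to 20.3%) of other midline-only and 17.3% (16.4 to 18.3%) of shared peaks. On 2R lay 209 (16.8%, 14.7 to 18.9%), against 20.4% (18.9 to 22.0%) of other midline-only peaks and 20.4% of shared peaks. The intervals of far and other midline-only peaks overlapped slightly on both arms. On 3L the shares were 22.4% of far and 22.8% of other midline-only peaks, and on 3R 24.4 and 25.7%. Seen from the arm, 15.3% (13.6 to 17.0%) of the midline peaks of 2L were far, and 10.5% (9.18 to 11.9%) of those of 2R, with the other arms between 11.1 and 13.2%.

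The X held few far midline peaks for the sequence it offered. It carried 174 of the 1248 (13.9%, 12.1 to 16.0%), against 12.5% (11.2 to 13.8%) of other midline-only peaks, 17.4% (16.5 to 18.4%) of shared peaks and 15.7% of all midline peaks. The X share of far and of other midline-only peaks thus did not differ beyond counting error. In the opposite direction, the 1909 embryo peaks at least 5000 bp from every midline peak had 442 on the X (23.2%, 21.3 to 25.1%), against 19.0% (18.3 to 19.8%) of all embryo peaks. The whole lists thus already differed in the same direction. Of the sequence between outermost embryo peaks, 62.5 Mb was at least 5000 bp from an embryo peak, and 18.8% of this was on the X. The far peaks per Mb of it came to 14.9 (exact Poisson 95% interval 12.7 to 17.2) on the X and 21.0 (19.7 to 22.3) on the autosomes. On single autosomal arms the density ran from 19.7 on 2R to 21.9 on 2L, and the interval of each overlapped those of the other 3, so by density 2L did not stand apart beyond counting error. Other midline-only peaks, set against the sequence within 5000 bp of embryo peaks, were lower on the X as well, at 33.4 per Mb (29.9 to 37.1) and 55.0 (52.8 to 57.3) on the autosomes.

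**Figure D3:**
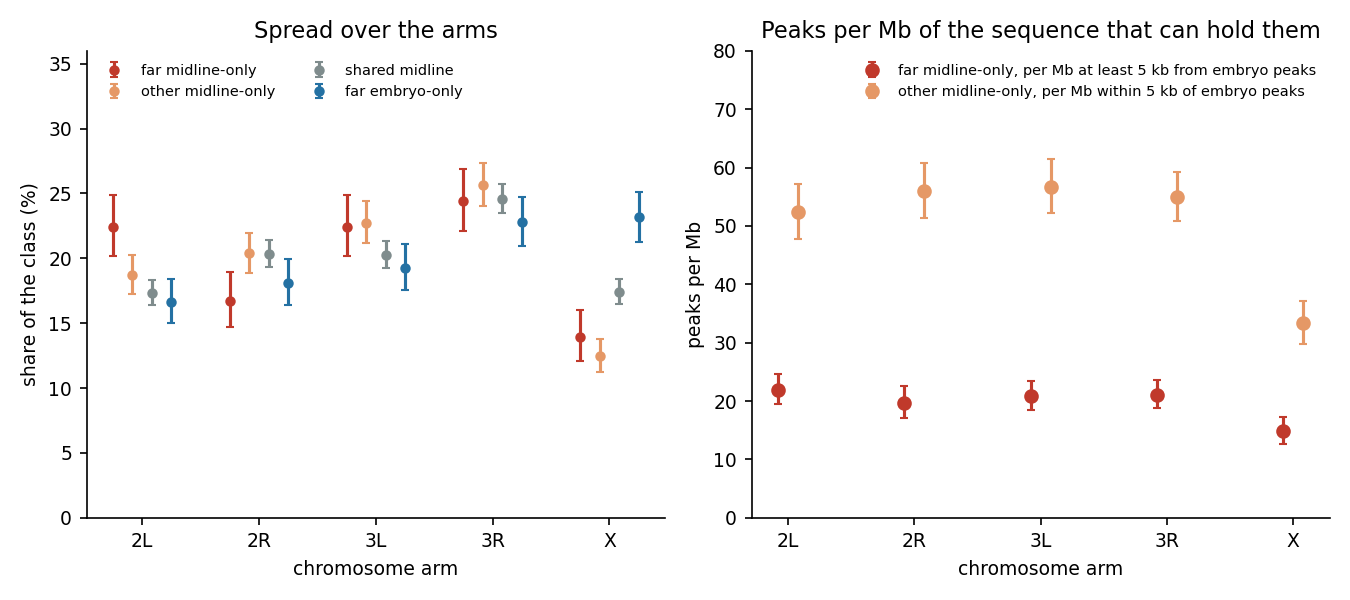
Left, share of each class of peaks on the 5 arms in percent, with exact 95% intervals. Right, far midline-only peaks per Mb of sequence at least 5 kb from embryo peaks, and other midline-only peaks per Mb within 5 kb of them, with exact Poisson intervals. Both densities are lowest on the X, at 14.9 and 33.4 per Mb.

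Over all arms, far peaks were sparser than midline-only peaks near embryo peaks. Their density was 19.8 per Mb (18.7 to 20.9), against 50.9 per Mb (49.0 to 52.9) for the other midline-only peaks in the 52.3 Mb that lay within 5000 bp of embryo peaks. Open regions of midline cells absent from the embryo list were thus denser near embryo peaks than away from them. In 116 whole windows of 1 Mb, the number of far peaks ranged between 0 and 28 with a median of 10. It had a Spearman correlation of -0.003 with the number of embryo peaks and of 0.43 with that of other midline-only peaks, whereas other midline-only and embryo peaks correlated at 0.56. These are descriptions across windows, and the rule itself removes far peaks where embryo peaks are dense. The richest window was on 2L at 19000001 to 20000000 with 28 far peaks, followed by the first Mb of 3L with 26 and by 22000001 to 23000000 of 3L with 23.

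A larger share of far peaks than of other midline-only peaks stood alone. With gaps of at most 10000 bp between neighbours, 691 of the 1248 far peaks had no other far peak beside them, and 557 (44.6%, 41.9 to 47.4%) fell into 225 clusters. Of the other midline-only peaks, 1721 of 2663 (64.6%, 62.8 to 66.4%) fell into 604 clusters. Clusters of 4 or more numbered 23 for far and 121 for other midline-only peaks. These counts take in neighbours of the same class alone, and the far class is the smaller and sparser, so they do not compare the classes at like number. When only the 5000 highest-scoring embryo peaks were counted, which gave 2855 far peaks, 62.1% of them had another far peak within 10000 bp. The median distance to the nearest midline peak of any class was 5890 bp for far, 1245 bp for other midline-only and 870 bp for shared peaks. No midline peak within 20000 bp was found for 10.9% (9.22 to 12.8%) of far, 2.10% (1.59 to 2.72%) of other midline-only and 2.84% (2.44 to 3.29%) of shared peaks. Part of this spacing is set by the rule, since a shared peak cannot lie much closer to a far peak than an embryo peak does.

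The class of a far peak's close neighbours is largely fixed by the rule, since a shared peak overlaps an embryo peak and an other midline-only peak lies within 5000 bp of one. Within 1000 bp, 199 far peaks had a midline peak, and for 184 of them a far peak was that close. The nearest midline peak, at whatever distance and under the same limit, was far for 628 (50.3%, 47.5 to 53.1%), shared for 355 (28.4%, 26.0 to 31.0%) and other midline-only for 265 (21.2%). Far peaks in clusters had a median score of 64 and a median width of 224 bp, and those that stood alone 59 and 203 bp. The flanking embryo peaks left gaps of like size around both, with medians of 33.2 and 33.0 kb.

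The largest cluster stood at the very start of arm 3L. Its 8 peaks spanned 24.7 kb from 26611 to 51326 with no other midline peak among them. Their scores in order of position were 148, 64, 183, 94, 232, 115, 115 and 94, so 5 of them exceeded the median of the midline list, 95. The nearest embryo peak lay between 70.9 and 95.2 kb away. No embryo peak of the list precedes it on the arm, so skipped embryo numbers cannot be counted there. In all, 11 far peaks lay outside the outermost embryo peaks of their arm, all on 3L, and all but the last of them at its start.

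A cluster on 2L held the second-highest far peak. Its 6 peaks ran from 19902973 to 19924120, with scores of 126, 50, 88, 415, 95 and 98, and carried consecutive peak numbers. The score of 415 belonged to the fourth peak, and no other reached above 126. Embryo peaks lay 6.73 kb or more from every member, and the gap between them of 38.5 kb had 1 skipped embryo number. The third cluster, 6 peaks on 3L from 13273143 to 13289462, was weaker, with scores of 74, 55, 60, 77, 122 and 63, and stood in an embryo gap of 109 kb with 4 skipped embryo numbers.

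**Figure D4:**
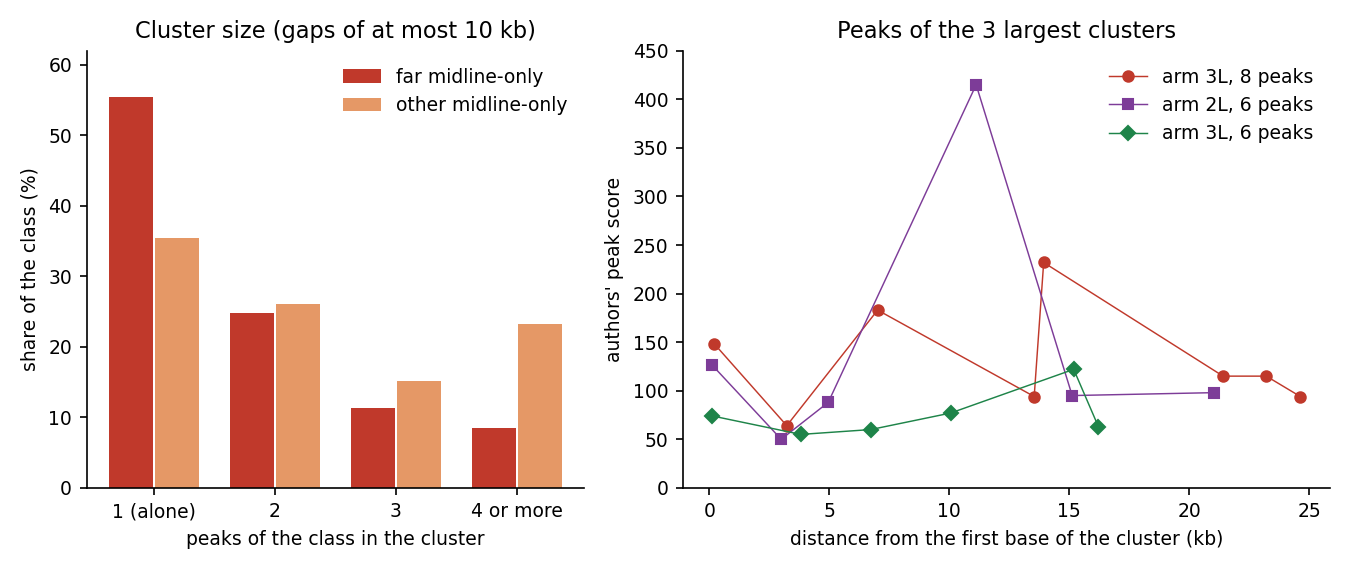
Left, share of far and of other midline-only peaks in percent that stood alone or in clusters of 2, 3 or at least 4 peaks of their class. Right, the authors' score of each peak in the 3 largest far clusters against the distance in kb from the first base of the cluster. The 2L cluster has a single high peak of 415, while the peaks of the first 3L cluster reach 232.

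Skipped numbers in the authors' peak names show how many calls of the longer embryo list were left out between the embryo peaks that flank a region. The highest number was 17552 for 10000 deposited embryo peaks, and this reading assumes that numbering came before selection. Of the 1237 far peaks with embryo peaks on both sides, 119 (9.62%, 8.03 to 11.4%) lay where 0 numbers were skipped. For these, the longer list held no further call in the gap. The remaining 1118 lay where at least 1 call was left out at an unknown position, with 268 peaks at 1, 246 at 2, 200 at 3 and 404 at 4 or more skipped numbers. Among other midline-only peaks, 655 of 2663 (24.6%, 23.0 to 26.3%) lay where 0 numbers were skipped.

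That contrast followed the size of the gaps. Flanking embryo peaks stood a median of 33.1 kb apart around far peaks and 9.89 kb around other midline-only peaks. Per 10 kb of gap, over gaps of all sizes, the median of skipped numbers was 0.67 for far and 1.13 for other midline-only peaks. The order was thus turned round, but not steadily at like gap size. In gaps of 10 to 20 kb these medians were 1.16 for far and 1.04 for other midline-only peaks. At 20 to 40 kb they were 0.76 and 0.81, at 40 to 80 kb 0.54 and 0.50, and at 80 kb or more 0.343 and 0.344. In gaps of 10 to 20 kb, 0 skipped numbers were found for 16.1% (11.8 to 21.3%) of 248 far and 19.7% (16.8 to 22.8%) of 722 other midline-only peaks. In gaps of 20 to 40 kb the shares were 9.64% of 498 and 12.4% of 420, and in gaps of 40 to 80 kb 7.73% of 362 and 8.57% of 140. In these 3 sizes the intervals overlapped, and the medians of skipped numbers were equal, at 2, 2 and 3.

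Embryo gaps that held a far midline peak had more skipped embryo numbers than gaps of like size without one, except among gaps of 80 kb or more. Of 3188 gaps long enough to hold a far peak, 800 did (25.1%), with 1 in 528 of them, 2 in 164 and 3 or more in 108. The share must grow with size, since a longer gap offers more sequence beyond 5000 bp from its ends. It was 12.7% (11.0 to 14.5%) of gaps of 10 to 20 kb, 31.7% (28.9 to 34.7%) at 20 to 40 kb, 42.7% (38.3 to 47.3%) at 40 to 80 kb and 46.7% (38.6 to 55.0%) at 80 kb or more. Per Mb of that sequence the order was turned round, with 39.6 far peaks (exact Poisson 95% interval 34.8 to 44.9), 27.0 (24.6 to 29.4), 16.8 (15.1 to 18.6) and 8.01 (6.69 to 9.51) by rising gap size. Far peaks were thus denser in the shorter gaps. In gaps of 10 to 20 kb, the skipped embryo numbers per 10 kb came to 1.27 (1.15 to 1.41) with a far midline peak and 0.72 (0.68 to 0.76) without. At 20 to 40 kb they were 0.82 (0.77 to 0.88) and 0.51 (0.48 to 0.55), and at 40 to 80 kb 0.53 (0.49 to 0.57) and 0.34 (0.31 to 0.37). At 80 kb or more they were 0.32 (0.28 to 0.36) and 0.35 (0.31 to 0.39). The intervals were apart in the 3 smaller sizes and overlapped in the largest. The gaps without a far peak were not split by whether they held other midline-only peaks. At like gap size, far and other midline-only peaks had close medians of skipped embryo numbers per 10 kb, as given above. Whether the higher values are particular to gaps with a far peak was therefore not tested. The positions of the skipped calls are unknown, so whether they coincide with the far midline peaks was not tested.

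**Figure D5:**
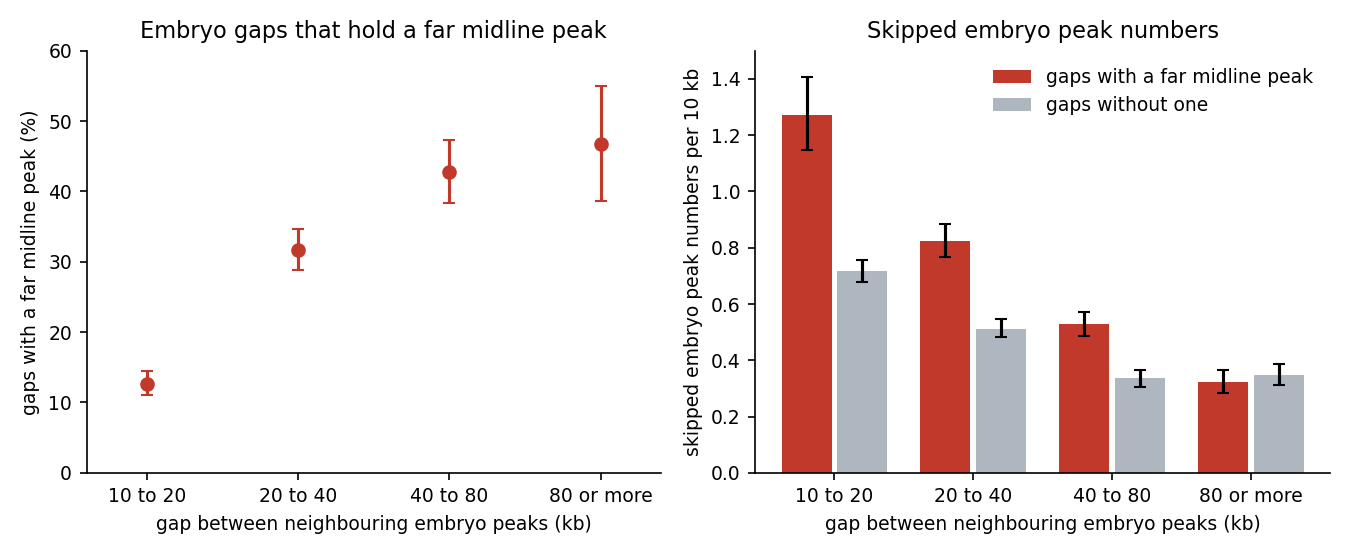
Left, share in percent of gaps between neighbouring embryo peaks that hold a far midline peak, by gap size in kb, with exact 95% intervals. Right, skipped embryo peak numbers per 10 kb, summed over gaps with and without a far midline peak, with exact Poisson intervals. In the 3 smaller sizes the gaps with a far midline peak have the higher value, 1.27 against 0.72 in the smallest. Gaps without a far midline peak may hold other midline-only peaks.

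The 119 far peaks in gaps with 0 skipped numbers are those for which neither the deposited nor the longer embryo list held a call between the flanks. They were weak, with a median score of 56 and a highest of 190, against medians of 61.5 for 714 peaks with 1 to 3 skipped numbers and 64 for 404 peaks with 4 or more. On the X lay 28 of the 119 (23.5%, 16.2 to 32.2%), 112 of the 714 (15.7%, 13.1 to 18.6%) and 34 of the 404 (8.42%, 5.90 to 11.6%). The intervals of the first and the last did not overlap. The X also had a larger share of its other midline-only peaks at 0 skipped numbers, 34.6% (29.5 to 40.0%), than the autosomal arms, at 21.2 to 24.7%. The embryo list itself skipped fewer numbers on the X, where 67.4% of the numbers from first to last were kept, against 55.0% on the autosomes. The part of this in the X shares was not tested.

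None of the 10 highest-scoring far peaks lay in a gap with 0 skipped numbers, and they had between 1 and 8. Over all 1237 far peaks with embryo peaks on both sides the share at 0 was 9.62%, so 0 of 10 does not set these peaks apart. The highest far peak in a gap with 0 skipped numbers, on 2L from 2632485 to 2632764, scored 190. It had embryo peaks 12.7 and 44.7 kb away and stood in a cluster of 4 far peaks. On 3L, the peak from 14585167 to 14585566 scored 164 and that from 17254137 to 17254556 scored 138. The other 2 of the 5 highest were a peak with a score of 161 on 3R, from 15187237 to 15187529, and a peak with a score of 136 on 2R, from 18256005 to 18256442. These 4 lay between 5.98 and 8.16 kb from the nearest embryo peak, closer than the first.

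In the midline list's own numbering, a smaller share of far peaks had 0 skipped numbers beside them, over longer spans. Counting the numbers skipped on both sides up to the next deposited midline peaks, 408 of 1242 far peaks (32.9%, 30.2 to 35.5%) had 0, against 45.1% (43.2 to 47.0%) of other midline-only and 48.3% (47.0 to 49.6%) of shared peaks. The median was 1 skipped number in each class, over median spans of 24.8, 8.78 and 9.50 kb. Per 10 kb of these spans, the median over peaks was 0.33 skipped midline numbers for far, 0.28 for other midline-only and 0.14 for shared peaks. Summed over each class the values were 0.36, 0.55 and 0.46, so the order of the classes depended on the summary.

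The embryo peak nearest to a far peak had a slightly lower median score and width than the embryo list as a whole. Over the 1248 far peaks, which had 922 different nearest embryo peaks, its median score in the embryo list was 137 (interquartile range 94.5 to 263), against 150 (96 to 302) for other midline-only peaks and 154 (99 to 298) for the whole embryo list. In the same order, the median ranks in the embryo list were 5565.5, 5118 and 5007.5, and the median widths 314, 354 and 329 bp. No interval was computed for the medians of nearest embryo peaks. The nearest embryo peak overlapped a midline peak in 59.1% (56.3 to 61.8%) of cases for far and in 65.8% (63.9 to 67.6%) for other midline-only peaks, against 56.6% (55.6 to 57.6%) of all embryo peaks. The interval for far peaks thus overlapped that of the whole embryo list, and the interval for other midline-only peaks lay above it. Both shares count an embryo peak once for each midline peak nearest to it. The 2663 other midline-only peaks had 2108 different nearest embryo peaks, so both intervals are too narrow for this comparison.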

How the data were processed

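Per the submitters' processing notes, the authors used CASAVA 1.8.2, Bowtie2, SAMtools, bedtools and MACS2 with dm3, the roles and settings being not given in the sources used here. File and peak names show that replicates were pooled before MACS2 and that 10000 peaks a group were kept. The score of each peak, as deposited by the authors, has no stated scale and was used within its list alone. Coordinates are given 1-based.

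Distances count the bases between nearest edges. Ranks average tied scores, while blocks of ranks split ties by position. Intervals are exact Clopper-Pearson for shares, exact Poisson for densities and binomial order statistics for medians. Since each group is 1 pooled list, no test was run. Named peaks are the 10 highest-scoring, the 5 farthest, the 5 highest with 0 skipped embryo numbers, the 3 largest clusters, the 5 on either side of the limit, and the 3 widest and 3 narrowest. The members, lists and comparisons were chosen with earlier results of these data known. The assignment of classes, distances, skipped embryo numbers and clusters was tested on simulated lists, the clusters with gaps of at most 5000 bp. Densities, rank blocks and intervals were not tested in this way. Alternatives changed the distance, its measure, the list lengths, the overlap rule and the cluster gap. Analyses used Python 3.11.15, numpy 2.4.6, pandas 2.3.3, scipy 1.17.1 and matplotlib 3.10.9.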

Additional observations from a re-analysis of the deposited data

How the results depend on the processing

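The number of far peaks depended on the settings that define it. It was 1975 at a distance of 2500 bp and 582 at 10000 bp, 249 among the 5000 highest-scoring midline peaks, and 2855 when the 5000 highest-scoring embryo peaks alone were counted. The X share lay between 13.7 and 15.8% under all 5 of these alternatives, the fifth being distance between midpoints, and so within its interval. With the 5000 highest midline or embryo peaks, the median width was 310 or 228 bp and the median rank 3882.5 or 6813.5. At 2500 and 10000 bp, and with the 5000 highest midline or embryo peaks, the share with another far peak within 10000 bp was 49.6, 40.7, 20.1 and 62.1%, and the share with 0 skipped embryo numbers 12.1, 6.655, 5.74 and 0.388%. The last value follows from its construction, since every embryo peak left out of the list then counts as skipped.

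When a shared peak had to overlap by 50% of both peaks, far minus other midline-only medians were -20 bp in width and 905.5 in rank, against -10 bp and 281.5 with 1 bp of overlap; the comparison class then takes in peaks that partly overlap an embryo peak. The width difference was -37, 4, -1.5 and -4 bp in the 4 bins of rank, so its direction did not hold in the second. The difference of 1 in median skipped embryo numbers became -0.467 per 10 kb of gap, over gaps of all sizes. Clusters numbered 185 with gaps of at most 5000 bp and 264 with 20000 bp. No paired analysis was possible because both replicates of a group had been merged into 1 list, and for that reason neither could be omitted in turn. Without known depth, a region absent from the embryo list may be closed, undetected or among the calls left out of it. The lists skipped 7552 embryo and 5189 midline numbers.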
